A study of Homo sapiens with 6 samples.

Results

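GD2 is a disialoganglioside, a sialic acid-bearing glycosphingolipid of the cell surface, and the target of therapeutic antibodies in neuroblastoma. The mRNAs of 8 genes of ganglioside synthesis were followed by RNA sequencing (RNA-seq) in the human neuroblastoma line SK-N-AS, of 58735 Ensembl genes listed for each library. The genes were chosen by name for their place in the pathway, with earlier results of these data known. All 8 were matched by Ensembl identifier. They are *UGCG* (ENSG00000148154), *B4GALT5* (ENSG00000158470), *B4GALT6* (ENSG00000118276), *ST3GAL5* (ENSG00000115525), *ST8SIA1* (ENSG00000111728), *B4GALNT1* (ENSG00000135454), *B3GALT4* (ENSG00000235863) and *ST8SIA5* (ENSG00000101638). All are protein-coding. RNA was measured, and neither the enzymes nor GD2 itself.

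Gangliosides are built one sugar at a time in the Golgi. *UGCG* encodes glucosylceramide synthase, which adds glucose to ceramide, and *B4GALT5* and *B4GALT6* encode the lactosylceramide synthases, which add galactose. *ST3GAL5* encodes GM3 synthase and *ST8SIA1* encodes GD3 synthase, which add the first and the second sialic acid, and *B4GALNT1* encodes the GM2/GD2 synthase that turns GM3 into GM2 and GD3 into GD2. *B3GALT4* encodes the galactosyltransferase that takes GM2 to GM1 and GD2 to GD1b, and *ST8SIA5* encodes a sialyltransferase of the later, more highly sialylated gangliosides.

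The cells were transfected with siPrp19, a small interfering RNA (siRNA) that targets Prp19 (n = 3 libraries), or with the negative control siRNA NC (n = 3 libraries), and were otherwise untreated. Prp19, the product of *PRPF19*, is part of the machinery that splices pre-mRNA. Transfection lasted 72 h per the labels, but less in the study's methods. The study describes 1 siRNA as selected for its assays, so effects of that siRNA on other transcripts cannot be told apart from those of the knockdown. The libraries are called NC 1, 2 and 3 and siPrp19 1, 2 and 3, after the letters a, b and c of their value columns.

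The 6 libraries held between 14887132 and 19977811 reads, recovered from the deposited FPKM (fragments per kilobase, a level corrected for gene length and for library size). The record of the files and the names of their value columns contradicted each other. In 4 of the 6 files the column name was the description of another library, and in 2 of them, NC 2 and siPrp19 2, it gave the opposite group. Libraries were grouped by column name. *PRPF19* (chr11:60890730-60906588, minus strand) had an FPKM of 83.0, 83.1 and 93.0 in NC and of 19.6, 19.1 and 18.5 in siPrp19. Its mean fell by 77.9% in siPrp19, and the file record would place the library with 83.1 under siPrp19 and the one with 19.1 under NC. The *PRPF19* level of each library thus went with its column name and not with the file record. The library siPrp19 1 stood apart with 8.29% of its reads from mitochondrial genes, against 5.15% to 5.49% in the other 5. NC 1 and NC 2 were close to sampling noise of each other (chi-square per degree of freedom of 1.67), as were siPrp19 2 and siPrp19 3 (2.45). The other 13 pairs lay between 16.05 and 41.3. Within groups, NC 3 stood at 17.5 from NC 1 and 17.9 from NC 2. The library siPrp19 1 stood at 16.05 from siPrp19 2 and 18.6 from siPrp19 3. Pairs between groups began at 16.07, so NC 3 and siPrp19 1 differed from their own group about as much as some libraries of opposite groups did. The limma and voom fits are therefore given below also for the 4 libraries with 1 group in both records, and with the close libraries counted once.

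Markers of adrenergic neuroblastoma were present, with 10 of 12 at a mean FPKM of at least 1, although *MYCN* was at 0 in every library. Mesenchymal markers were also present (6 of 7), whereas the summed FPKM of Schwann, endothelial and epithelial markers stayed under 1 for each list in every library. The summed FPKM of the adrenergic list was 339 to 359 in NC and 268 to 282 in siPrp19, and that of the mesenchymal list was 229 to 253 and 175 to 202. Of the 4 blood markers, *PTPRC* had an FPKM of 24.9 to 30.7 in NC and of 16.9 to 20.4 in siPrp19, and *CD3E* was at 0. These sums moved with the knockdown, and their part in the values below was not tested. In bulk RNA, fewer cells of a type and less RNA per cell cannot be told apart.

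In the limma fit of log2(FPKM + 1) over the 13718 genes whose mean FPKM reached 1, 6 of the 8 genes could be tested. *B4GALNT1* rose, *UGCG* and *B4GALT5* fell, and *B4GALT6*, *ST3GAL5* and *B3GALT4* did not pass an adjusted p of 0.05. Among all tested genes, 353 passed in the higher direction (2.57%) and 736 in the lower direction (5.37%). *ST8SIA1* and *ST8SIA5* were under the level limit in the 6-library mean and had no test across genes. The split of calls depended on the scale, with 501 higher and 586 lower after quantile normalization and 753 higher and 614 lower with voom, a limma model for counts, on the recovered reads. On simulated data, limma on log2(FPKM + 1) made a larger share of false calls than the threshold states.

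**Figure D1:**
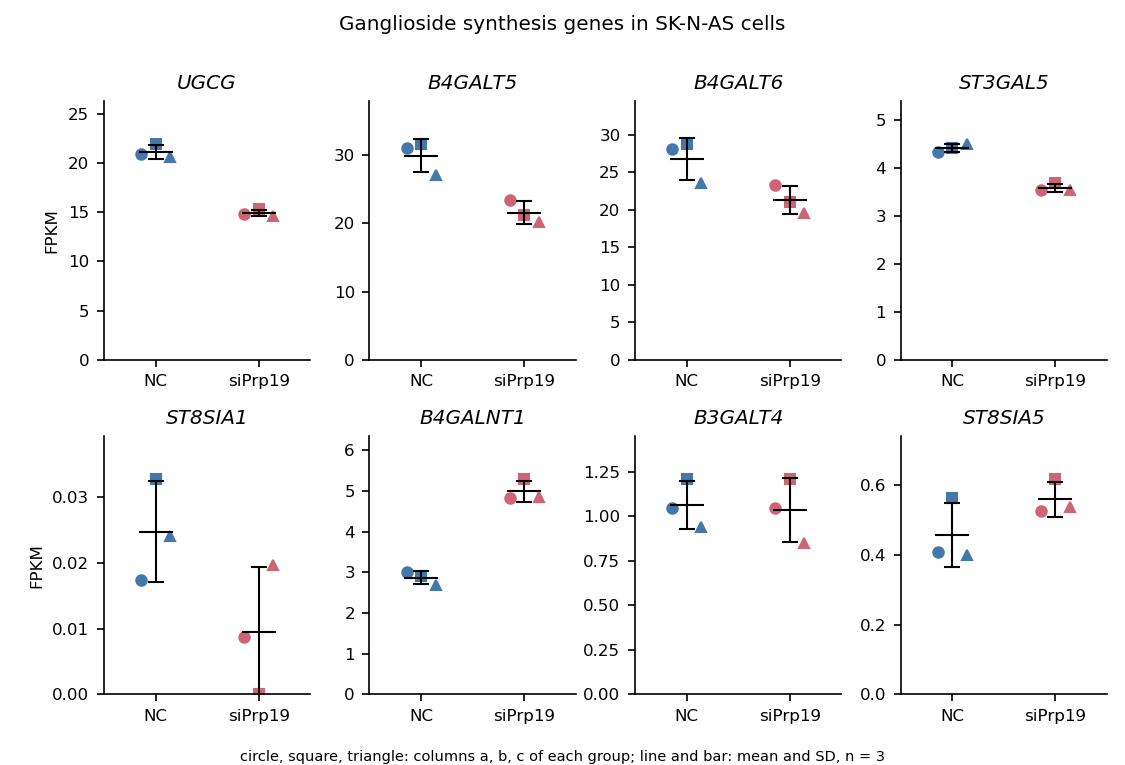
FPKM of the 8 ganglioside synthesis genes in each library of NC (blue) and siPrp19 (red), with the mean and SD of 3 libraries, on a linear axis from 0 for each gene. *B4GALNT1* lies at 2.68 to 3.00 in NC and 4.82 to 5.28 in siPrp19, *UGCG* at 20.6 to 21.9 and 14.7 to 15.3, and *ST8SIA1* stays under 0.04 in every library.

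The genes covered very different levels. In NC, the order of mean FPKM was *B4GALT5* (29.9), *B4GALT6* (26.8), *UGCG* (21.2), *ST3GAL5* (4.41), *B4GALNT1* (2.86), *B3GALT4* (1.06), *ST8SIA5* (0.457) and *ST8SIA1* (0.0248). The ranges of *B4GALT5* and *B4GALT6* overlapped in both groups, and those of the other neighbours did not overlap in NC. Among the 13718 tested genes, the NC level of *B4GALT5* stood at percentile 88.9 and that of *B4GALNT1* at percentile 27.8. *ST3GAL5* was above *B4GALNT1* in all 3 NC libraries and below it in all 3 siPrp19 libraries. This order is that of FPKM and rests on the merged exon lengths, 16318 bases for *ST3GAL5* and 8003 for *B4GALNT1*. In reads, *ST3GAL5* stayed above *B4GALNT1* in the siPrp19 libraries as well (909, 991 and 1211 against 609, 698 and 815).

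*UGCG* (chr9:111896766-111935369, plus strand), the entry step from ceramide, had an FPKM of 20.9, 21.9 and 20.6 in NC and of 14.9, 15.3 and 14.7 in siPrp19. Every siPrp19 library was below every NC library, on 1084 to 1637 reads per library. The mean went from 21.2 ± 0.691 (SD, n = 3) to 15.0 ± 0.324, and so fell by 29.3%. On the log2(FPKM + 1) scale this was -0.47 ± 0.06 (SE; 95% confidence interval -0.62 to -0.33), at an adjusted p of 0.00833 in limma with Benjamini-Hochberg adjustment. Leaving out siPrp19 3 alone brought the adjusted p of limma to 0.0533.

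*B4GALT5* (chr20:49632945-49713878, minus strand), the first of the lactosylceramide synthases, had an FPKM of 31.0, 31.6 and 27.1 in NC and of 23.4, 21.2 and 20.2 in siPrp19. The groups did not overlap, and NC 3 was the lowest NC library. The mean went from 29.9 ± 2.43 (SD, n = 3) to 21.6 ± 1.65, and so fell by 27.9%. The log2 fold change of -0.45 ± 0.09 (SE; 95% confidence interval -0.66 to -0.24) passed in limma at an adjusted p of 0.0276. This call was lost without the limit on low values (adjusted p = 0.0722), after quantile normalization (log2 fold change -0.35, adjusted p = 0.104) and with the same sum per library (-0.41, adjusted p = 0.0864) in limma. It was also lost without NC 1 (adjusted p = 0.118), NC 2 (0.112), siPrp19 2 (0.117) or siPrp19 3 (0.118) in limma.

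*B4GALT6* (chr18:31622247-31685836, minus strand), which encodes an enzyme of the same step, had an FPKM of 28.1, 28.7 and 23.6 in NC and of 23.3, 21.0 and 19.5 in siPrp19. The lowest NC library and the highest siPrp19 library differed by little. The log2 fold change of -0.32 ± 0.10 (SE; 95% confidence interval -0.56 to -0.07) did not pass in limma (adjusted p = 0.116). It passed only when NC 3 was left out, at -0.40 with an adjusted p of 0.0411 in limma. In the fit of all 6 libraries the interval lay below 0, and the difference missed the threshold after adjustment over all tested genes.

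The share of *B4GALT5* in the summed FPKM of both lactosylceramide synthases was 52.5%, 52.4% and 53.5% in NC and 50.1%, 50.2% and 50.8% in siPrp19. The lowest NC library was above the highest siPrp19 library. The mean share in siPrp19 minus that in NC was -2.45 percentage points, with p = 0.1 in a two-sided exact permutation test, the smallest that 3 libraries against 3 allow. Both transcripts were therefore present at near equal levels under either siRNA. The permutation test took all libraries as independent and was not run with the close libraries counted once.

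Promoter sequences from RefSeq (GRCh38.p14) were matched for 4 of the 8 genes, *UGCG*, *B4GALT5*, *ST3GAL5* and *ST8SIA1*. Those of *UGCG* and *B4GALT5*, the pair that fell, are shown up to the gene start, 5′ to 3′ on the strand of the gene. They are chr9:111896564-111896765 (plus strand, 202 bases) and chr20:49713879-49714128 (minus strand, 250 bases). Capitals mark GGGCGG, a core of the Sp1 GC box, and GGAATG, a core of the TEAD site, in either orientation.
*UGCG*: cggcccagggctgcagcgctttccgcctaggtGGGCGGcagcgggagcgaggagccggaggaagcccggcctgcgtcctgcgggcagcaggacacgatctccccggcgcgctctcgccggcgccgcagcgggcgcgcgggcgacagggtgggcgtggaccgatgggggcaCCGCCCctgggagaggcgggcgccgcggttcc
*B4GALT5*: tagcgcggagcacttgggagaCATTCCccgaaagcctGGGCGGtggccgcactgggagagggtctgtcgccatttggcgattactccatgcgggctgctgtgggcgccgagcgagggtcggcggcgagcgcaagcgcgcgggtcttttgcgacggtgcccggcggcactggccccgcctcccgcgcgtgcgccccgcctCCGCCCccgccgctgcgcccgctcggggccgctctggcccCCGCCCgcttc

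Both stretches are rich in G and C, with 79.2% in *UGCG* and 75.6% in *B4GALT5*, against a median of 58% over 35116 promoters of 250 bases. *UGCG* held GGGCGG at 2 places and *B4GALT5* at 3, and 42.6% of all promoters held it at least once. GGAATG was found once in *B4GALT5* and not in *UGCG*, and 11.9% of all promoters held it. The E-box CACGTG, searched on both strands as well, was in neither stretch and in 6.34% of all promoters. These matches describe letters in the window and are no sign that a factor binds there.

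*ST3GAL5* (chr2:85837120-85905199, minus strand), GM3 synthase, had an FPKM of 4.32, 4.41 and 4.49 in NC and of 3.53, 3.68 and 3.53 in siPrp19. Every siPrp19 library was below every NC library, and the spread within groups was small. The mean in siPrp19 differed by -18.7% from that in NC, with a log2 fold change of -0.24 ± 0.07 (SE; 95% confidence interval -0.39 to -0.09). The adjusted p of 0.0737 in limma missed the threshold, and *ST3GAL5* was called under none of the other fits.

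*ST8SIA1* (chr12:22063773-22437041, minus strand), GD3 synthase, was close to the detection limit. Its FPKM was 0.0174, 0.0328 and 0.0241 in NC and 0.00874, 0 and 0.0197 in siPrp19. These values rested on 4, 7 and 6 reads in NC and on 2, 0 and 6 reads in siPrp19, and the groups overlapped. The 17 reads in NC and 8 in siPrp19 gave a ratio per read of 0.446, with a 95% interval of 0.167 to 1.09 for counting error alone. The library with 0 reads allows up to 3. A difference in *ST8SIA1* was thus not detectable at this depth (exact permutation p = 0.2, two-sided). The RNA of the enzyme that makes GD3, the precursor of GD2, was scarce in these cells under both siRNAs.

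*B4GALNT1* (chr12:57623410-57633355, minus strand), GM2/GD2 synthase, was the gene of the 8 that rose. Its FPKM was 3.00, 2.91 and 2.68 in NC and 4.82, 5.28 and 4.85 in siPrp19, and every siPrp19 library was above every NC library. The mean went from 2.86 ± 0.165 (SD, n = 3) to 4.98 ± 0.261, a level 1.74-fold as high. In limma the log2 fold change was 0.63 ± 0.07 (SE; 95% confidence interval 0.45 to 0.81; adjusted p = 0.00631). This value is on the log2(FPKM + 1) scale, which understates the change of low genes, and voom on the reads gave 0.88 with an adjusted p of 0.00115.

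The reads of *B4GALNT1* were 380, 344 and 369 in NC and 609, 698 and 815 in siPrp19. Per read sequenced, the ratio of siPrp19 to NC was 1.84, with a 95% interval of 1.71 to 1.98 for counting error alone. Of the exon length of *B4GALNT1*, 26.7% (2136 bases) is shared with *SLC26A10P*, a gene on the other strand, and whether strand was used in counting is not given in the sources used here. *SLC26A10P* had an FPKM of 0.384, 0.666 and 0.598 in NC and of 0.533, 0.482 and 0.780 in siPrp19, on 26 to 70 reads. Its groups overlapped, and whether these reads include any from the shared stretch is not known. How reads in the shared stretch were assigned was not tested.

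The balance of GD3 synthase to GM2/GD2 synthase was taken as log2((*ST8SIA1* FPKM + 1)/(*B4GALNT1* FPKM + 1)) in each library. It was -1.97, -1.92 and -1.85 in NC and -2.53, -2.65 and -2.52 in siPrp19. The mean in siPrp19 minus that in NC was -0.65 on the log2 scale (exact permutation p = 0.1, two-sided, the smallest possible for 3 libraries against 3). That test, too, took the close libraries as independent. With *ST8SIA1* near 0 on this scale, the ratio was set almost entirely by *B4GALNT1*.

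*B3GALT4* (chr6:33277132-33284832, plus strand), which takes GD2 on to GD1b, had an FPKM of 1.05, 1.21 and 0.938 in NC and of 1.05, 1.21 and 0.849 in siPrp19. The groups overlapped almost fully, on 38 to 47 reads per library. The log2 fold change was -0.02 ± 0.12 (SE; 95% confidence interval -0.31 to 0.27; adjusted p = 0.936 in limma), and its sign turned under other settings. The interval leaves room for a change of modest size in either direction.

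*ST8SIA5* (chr18:46667821-46759257, minus strand), a sialyltransferase of the later gangliosides, had an FPKM of 0.408, 0.563 and 0.401 in NC and of 0.525, 0.618 and 0.537 in siPrp19. NC 2 was above siPrp19 1 and siPrp19 3, so the groups overlapped (exact permutation p = 0.3, two-sided). Summed over libraries there were 342 reads in NC and 470 in siPrp19, a ratio per read of 1.30 with a 95% interval of 1.13 to 1.501 that covers counting error alone and not the spread between libraries. When all genes above 0 were fitted, *ST8SIA5* had a log2 fold change of 0.10 (adjusted p = 0.672 in limma) and *ST8SIA1* one of -0.02 (adjusted p = 0.673).

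The calls depended on how the libraries were grouped and counted. With the groups of the file record, limma called 0 of 13718 genes (0%), with 191 at an unadjusted p under 0.05, and none of the 8 genes. Under that grouping the log2 fold change of *B4GALNT1* was 0.18, that of *UGCG* -0.15 and that of *B4GALT5* -0.08 (adjusted p = 1.00 for each in limma). *PRPF19*, the targeted gene, did not pass under it either (-0.74, adjusted p = 1.00 in limma). The file record exchanges NC 2 and siPrp19 2, whose *PRPF19* levels went with their column names. Its lack of calls therefore cannot show how firm the calls by column name are.

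In the 4 libraries with 1 group in both records (NC 1, NC 3, siPrp19 1 and siPrp19 3), the sizes stayed close to those of all 6. The log2 fold change was 0.60 for *B4GALNT1* (adjusted p = 0.152 in limma), -0.46 for *UGCG* (0.207) and -0.40 for *B4GALT5* (0.354), and none of the 8 genes passed. Only 2 of all genes passed there (0.0146%), with 1685 at an unadjusted p under 0.05. Voom on the reads of these 4 libraries called 264 genes (1.92%), among them *B4GALNT1* (0.85, adjusted p = 0.0201) but neither *UGCG* (-0.41, 0.224) nor *B4GALT5* (-0.34, 0.345).

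Counting the close libraries once gave much the same. Limma on their averaged FPKM called 2 genes (0.0146%) and none of the 8, with 0.64 for *B4GALNT1* (adjusted p = 0.1404), -0.47 for *UGCG* (0.206) and -0.39 for *B4GALT5* (0.352). Voom on their summed reads called 288 genes (2.1%), and of the 8 genes *B4GALNT1* alone passed (0.88, adjusted p = 0.0141). In all 6 libraries, voom called 1367 genes (9.97%) and the same 3 of the 8 genes as limma. Without siPrp19 1, the library with the high mitochondrial share, limma gave 0.65 for *B4GALNT1* (adjusted p = 0.0150), -0.47 for *UGCG* (0.0192) and -0.51 for *B4GALT5* (0.0292).

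**Figure D2:**
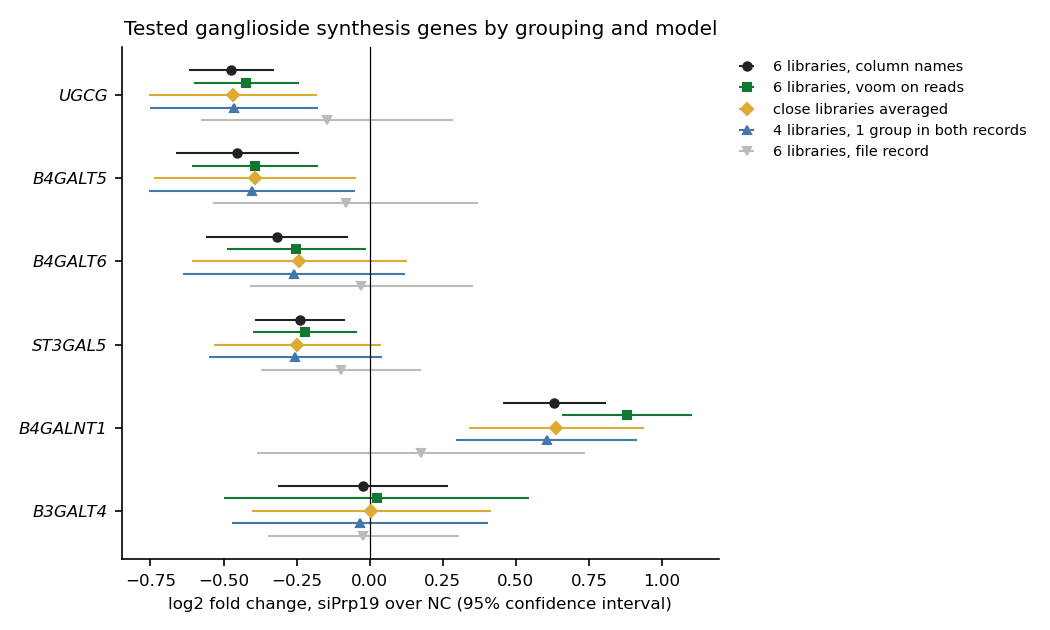
Log2 fold change of siPrp19 over NC (horizontal axis) with its 95% confidence interval for the 6 tested genes, in the fit of all 6 libraries by column name, voom on the reads, close libraries averaged, the 4 libraries with 1 group in both records, and the file record. The points of *B4GALNT1* lie between 0.60 and 0.88 in all fits by column name and at 0.18 under the file record, where its interval spans 0.

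The rest of the glycosphingolipid pathway was covered by gene lists from textbook knowledge, chosen with earlier results of these data known. The 6 tested genes of GD2 synthesis had a median log2 fold change of -0.28, beside -0.02 over all 13718 tested genes. Of the other glycosphingolipid branches, 11 of 19 genes were tested, 2 fell and none rose, with a median of -0.01. Of ceramide and sphingomyelin synthesis, of which the ceramide-making part supplies the substrate of *UGCG*, 14 of 21 were tested and none passed (median -0.03). None of the 14 genes of glycolipid transfer and Golgi retention passed either (median -0.03).

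The 2 that fell in the other branches were *B3GALNT1* and *ST3GAL4*. *B3GALNT1*, the globoside synthase, had an FPKM of 1.95, 2.42 and 2.46 in NC and of 0.817, 0.724 and 0.797 in siPrp19, so the groups lay far apart. Its mean fell by 65.7% (log2 fold change -0.88 ± 0.11, SE, adjusted p = 0.00703 in limma). *ST3GAL4*, a sialyltransferase, had 14.9, 13.5 and 16.7 in NC and 10.7, 11.4 and 11.4 in siPrp19 (log2 fold change -0.39, adjusted p = 0.0397 in limma), a call lost with voom (adjusted p = 0.0517) and without any one library other than NC 3.

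Of 17 genes of glycosphingolipid breakdown in the lysosome and at membranes, 16 were tested, 3 rose and none fell. All 16 log2 fold changes were above 0, as were 6307 of the 13718 over all tested genes, and their median was 0.22. The other 13 did not pass, and the smallest of the 16 values was 0.027. These signs were counted only in the limma fit of all 6 libraries by column name. Genes of a list need not vary independently, and a shared rise of the list was not tested. *SMPD1*, which was on this list, encodes acid sphingomyelinase, an enzyme that degrades sphingomyelin and not a glycosphingolipid. It had an FPKM of 18.3, 17.1 and 19.7 in NC and of 32.5, 28.6 and 28.7 in siPrp19. Its groups lay far apart, with a mean 62.8% higher (log2 fold change 0.67 ± 0.08, SE, adjusted p = 0.00718 in limma).

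*GLB1*, the β-galactosidase that degrades GM1, had 7.09, 7.86 and 7.5 in NC and 10.0, 9.05 and 9.49 in siPrp19 (log2 fold change 0.31, adjusted p = 0.0438 in limma), a call lost without any one of the 6 libraries.

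All 17 genes of sialic acid and sugar nucleotide supply were tested, and 1 rose and 2 fell (median -0.10). The riser was *SLC17A5*, the lysosomal sialic acid exporter, with 5.98, 5.29 and 5.50 in NC and 7.34, 7.70 and 8.18 in siPrp19 (log2 fold change 0.41, adjusted p = 0.0211 in limma). *UXS1*, which makes UDP-xylose and does not serve gangliosides, had 9.38, 9.09 and 9.64 in NC and 5.37, 4.93 and 5.28 in siPrp19 (-0.74, adjusted p = 0.00254). *SLC35A2*, which carries the UDP-galactose used by the galactosyltransferases into the Golgi, had 11.7, 11.4 and 12.7 in NC and 6.76, 8.80 and 8.74 in siPrp19 (-0.51, adjusted p = 0.0333 in limma). Without NC 1, NC 2, siPrp19 2 or siPrp19 3, *SLC17A5* and *SLC35A2* no longer passed, and *SLC35A2* was lost without NC 3 as well.

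Of these further genes, *B3GALNT1*, *SMPD1* and *UXS1* also passed with voom in the 4 libraries with 1 group in both records, at log2 fold changes of -1.36, 0.76 and -0.75 (adjusted p = 0.0210, 0.0225 and 0.0241). None of those named passed with limma in those libraries, with the close libraries averaged, or under the file record.

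**Figure D3:**
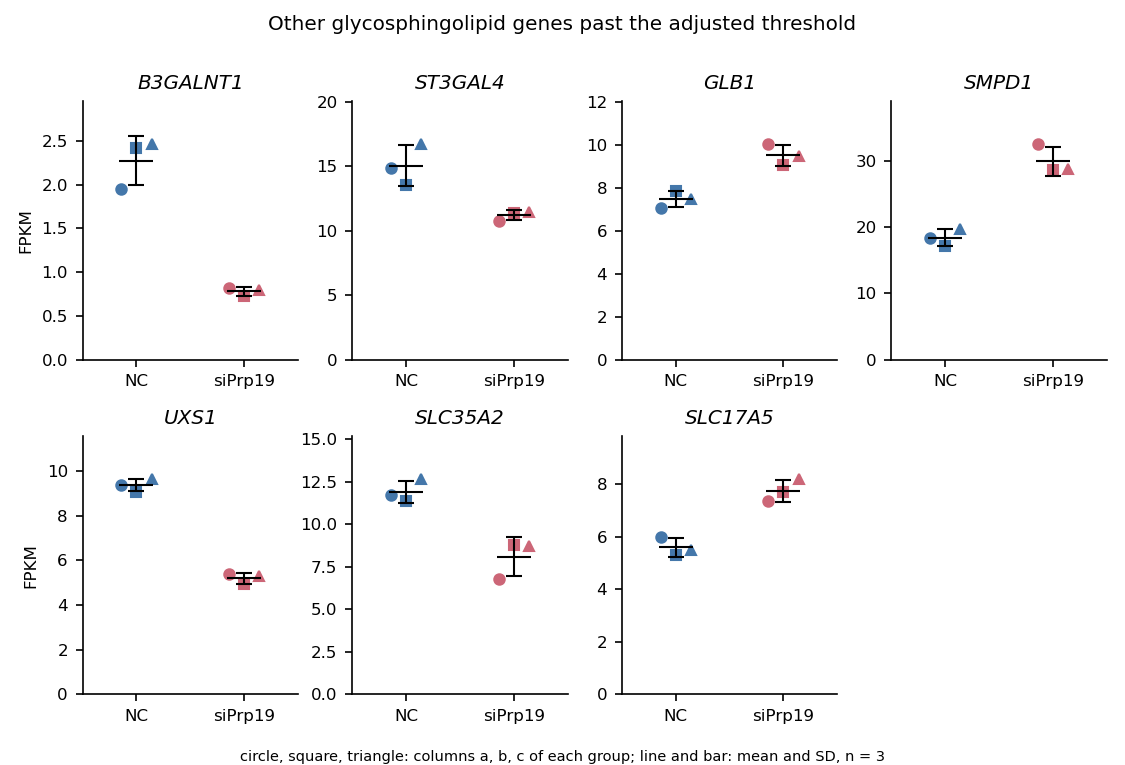
FPKM of 7 further genes of the pathway lists past an adjusted p of 0.05 in limma, per library of NC (blue) and siPrp19 (red), with the mean and SD of 3 libraries and axes from 0. Among them, *SMPD1*, *UXS1*, *SLC17A5* and *SLC35A2* do not act on glycosphingolipids themselves. *B3GALNT1* goes from at least 1.95 in NC to at most 0.817 in siPrp19, and *SMPD1* from at most 19.7 to at least 28.6.

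**Figure D4:**
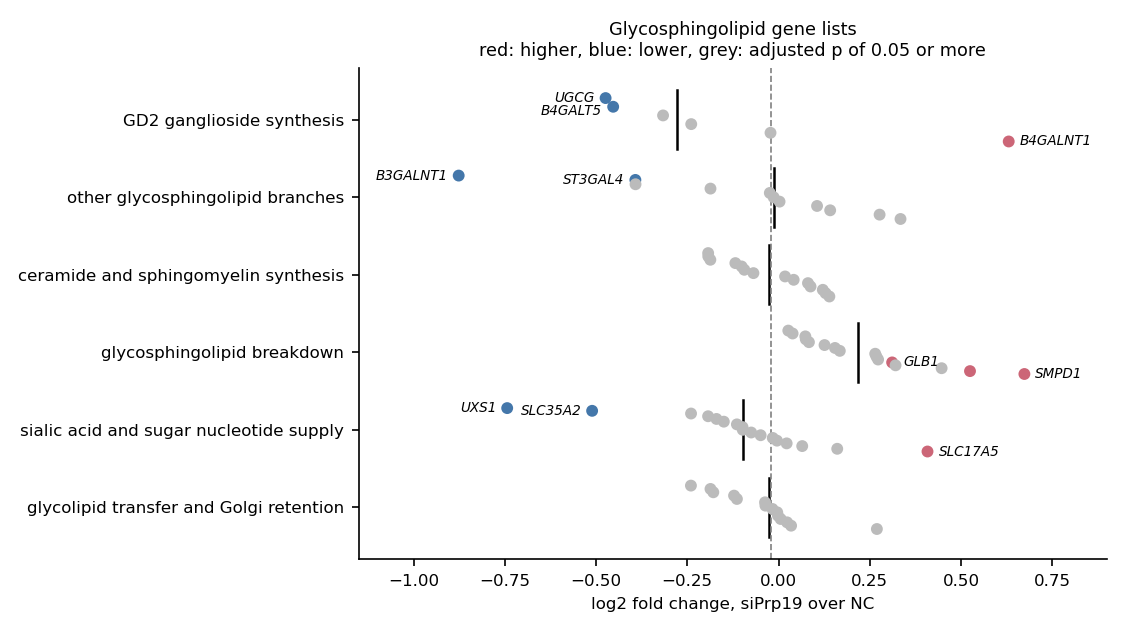
Log2 fold change of siPrp19 over NC (horizontal axis) of every tested gene, 1 point a gene, in 6 glycosphingolipid gene lists, with black lines at list medians and a dashed line at the median of all tested genes, -0.02. Red and blue points passed the adjusted threshold. The 16 breakdown genes all lie above 0 with a median of 0.22, though 13 of them did not pass.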

How the data were processed

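TRIzol RNA of SK-N-AS cells was sequenced after preparation with NEBNext Ultra RNA. The authors deposited 1 FPKM table per library and tested their counts with DESeq2. HISAT2 2.0.5, featureCounts 1.5.0-p3 and hg38 are named in the submitters' processing notes. Strandedness and annotation release are not given in the sources used here. All 58735 identifiers were found in GENCODE 29 (GRCh38), whose coordinates are used, and 58207 were named by a symbol table. FPKM times merged exon length was a whole multiple of 1 read (within 0.1) for 100% of values, which recovered the reads. Their totals were 0.951 to 1.04 times the library size implied by FPKM, so the FPKM carry a scaling between libraries by the authors. The ratio was 1.01, 1.01 and 1.04 in NC and 0.989, 0.961 and 0.951 in siPrp19. Beside total reads, this scaling thus raised FPKM in NC and lowered it in siPrp19. The median log2 fold change of all tested genes was -0.02 with limma on FPKM and 0.055 with voom on the reads.

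Genes whose mean FPKM over the 6 libraries reached 1 entered limma 3.58.1 (R 4.3.3) on log2(FPKM + 1), with a mean-variance trend, moderated two-sided tests and Benjamini-Hochberg adjustment over 13718 genes at a threshold of 0.05. Every adjusted p is from this fit or from a named alternative to it, with the same adjustment and threshold. Voom used the recovered reads without that trend, and the fit with no limit on low values was adjusted over 34468 genes. Tables were handled in Python 3.11.15. Every exact permutation test took the 6 libraries as independent, and none was run with the close libraries counted once. The study describes its replicates as biological, and the labels do not say whether cultures were separate. Same-numbered libraries did not deviate together (r = 0.134, -0.049 and 0.204), so numbers were not taken to pair them. The procedure was tested on simulated independent libraries, with 200 genes changed 3-fold at a dispersion of 0.01. With limma on log2(FPKM + 1), 21 of 206 calls were false in 6 libraries and 27 of 205 in 4. This share was above the threshold. With voom, 5 of 189 and 9 of 190 calls were false, a share below it. The simulation held no close libraries, and its changed genes moved more than the 8 genes did, so the real share of false calls may differ. The members and lists were chosen with earlier results of these data known. Named were all 8 members, *PRPF19*, and per list up to 3 genes each with the largest rise and fall among those called, except that some items are not reported here.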

Additional observations from a re-analysis of the deposited data

How the results depend on the processing

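Of the 6 tested synthesis genes, *B4GALNT1* rose and *UGCG* fell under a pseudocount of 0.1, no limit on low values, quantile normalization, the same sum per library, no mean-variance trend, the replicate block and voom on all 6 libraries. Over all tested genes 1089 passed the threshold, a number that went to 512 with no limit on low values, where more genes are tested, 656 with the same sum per library, 0 under the file record, 2 in the 4 libraries with 1 group in both records and 253 to 1354 with 1 library left out. It was 264 without NC 1, 335 without NC 2, 270 without siPrp19 2 and 253 without siPrp19 3. Alternatives chosen after seeing the data gave 264 (voom on the 4 libraries), 2 (close libraries averaged) and 288 (close libraries summed, voom). Of the 8 synthesis genes 3 passed, and 0 did under the file record, in the 4 libraries and with close libraries averaged, 1 with either voom on fewer libraries and without siPrp19 3, and 1 to 4 with 1 library left out.

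*UGCG* missed the threshold at log2 fold changes of -0.15 (file record), -0.46 (4 libraries), -0.41 (4 libraries, voom), -0.47 (averaged) and -0.42 (summed, voom), with a range of -0.49 to -0.45 on leaving out 1 library. *B4GALT5* missed it at -0.45 (no limit), -0.35 (quantile), -0.41 (same sum), -0.0828 (file record), -0.40 (4 libraries), -0.34 (4 libraries, voom), -0.39 (averaged) and -0.33 (summed, voom), with a range of -0.52 to -0.41. *B4GALNT1* missed it at 0.18 (file record), 0.60 (4 libraries) and 0.64 (averaged), with a range of 0.59 to 0.66. *B4GALT6* ranged from -0.40 to -0.26 and passed without NC 3. *B3GALT4* turned positive at 0.024 (voom), 0.0031 (4 libraries, voom), 0.0058 (averaged), 0.045 (summed, voom), 0.028 (without NC 2) and 0.045 (without siPrp19 3), with a range of -0.083 to 0.045. The share of *B4GALT5* differed by -0.970 points and the log2 ratio of *ST8SIA1* to *B4GALNT1* by -0.17 under the file record, and the ratio by -0.97 with a pseudocount of 0.1. The pathway lists, whose alternatives were added after seeing the data, had 8 genes past the threshold and 4 with no limit, 5 with the same sum, 15 with voom, 0 under the file record, in the 4 libraries and averaged, 3 in the 4 libraries with voom, 4 summed with voom, and 3 to 9 with 1 library left out (4 without NC 1 and 3 without NC 2, siPrp19 2 or siPrp19 3). Why these values moved was not tested.

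The replicate number as a block called 928 genes (261 higher, 667 lower) and 3 of the 8 synthesis genes, but neither *ST3GAL4* (adjusted p = 0.0521 in limma) nor *GLB1* (0.0841). The numbers are only shared names, since the replicates did not deviate together. Depth limits *ST8SIA1*, with at most 7 reads in a library, and *B3GALT4*, with at most 47.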

Other observations

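The other sialyltransferases of the ST8SIA family were low or absent. *ST8SIA2* and *ST8SIA6* had 0 reads in all 6 libraries, each of which allows up to 3 reads. *ST8SIA4*, a polysialyltransferase, had an FPKM of 0.802, 0.879 and 0.925 in NC and of 0.804, 0.995 and 0.666 in siPrp19, and the groups overlapped. *NCAM1*, the main carrier of polysialic acid, had 3.36, 3.27 and 2.54 in NC and 2.11, 2.19 and 1.90 in siPrp19, with a log2 fold change of -0.40 that did not pass (adjusted p = 0.0726 in limma).

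The tested genes whose log2(FPKM + 1) followed *B4GALNT1* most closely over the 6 libraries were *TCTA*, *MIDN* and *GCH1* (Pearson's r of 0.998, 0.997 and 0.997). The libraries form 2 groups, so any gene that differs between them has a high r, and 254 genes were above 0.95.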
